A study of Mus musculus with 4 samples.

Results

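The genes described here were *Adck1*, the other 4 UbiB family kinases of the mouse (*Adck2*, *Adck5*, *Coq8a* and *Coq8b*) and 5 enzymes of coenzyme Q synthesis (*Coq3*, *Coq5*, *Coq7*, *Coq9* and *Pdss1*). They were chosen by gene symbol, as 10 of the 12693 symbols in the deposited RNA-seq table, and all 10 passed the filter of a mean of at least 10 normalized counts that 12472 genes passed. The study had picked *Adck1* partly on these same samples, for its lower level in *Foxq1* cKO cells. It also named FOXQ1 binding at the promoter, lower levels in qPCR and an earlier report from *Drosophila* muscle. The other genes were listed with earlier results of these data known. The difference between the groups is therefore given below for each of the 10 genes as a description, with no p. Counts of these genes past a threshold support nothing.

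RNA was sequenced from brain endothelial cells (ECs) of C57BL/6 mouse embryos at embryonic day 18 (E18). The wild-type group held 2 samples, which the methods give as littermates without the Cre transgene, and the *Foxq1* cKO group held 2 samples of the genotype *Foxq1* fl/fl;Tie2-Cre. Cells of the cerebral cortex were sorted on CD31, an endothelial surface protein, although the labels give the tissue only as brain. The study names the sequencing as Smart-seq2-based, a method that amplifies full-length cDNA and in its usual form does not mark the strand. Tie2-Cre deletes floxed alleles in endothelium and is also known to be active in part of the blood lineage. How many embryos went into a sample was not given in the sources used here, so the spread between samples may be partly technical. In bulk RNA of this kind, fewer cells of a type and less RNA per cell cannot be told apart.

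UbiB proteins are an ancient family with a protein kinase-like fold, found in mitochondria of animals. COQ8A and COQ8B support the enzyme complex on the matrix face of the inner membrane that builds coenzyme Q, the lipid that carries electrons between the dehydrogenases and complex III of the respiratory chain, whereas ADCK1 has been tied to the MICOS complex that shapes cristae and to its turnover by the protease YME1L1. Endothelial cells cover much of their energy need by glycolysis, but their mitochondria hold the same coenzyme Q machinery as other cells.

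The study examined the letters GTTTC near the start of *Adck1*, so these letters were located in the promoters of the 10 genes. RefSeq promoter windows of the GRCm38.p6 build, each covering 250 bases before to 50 bases after a start site, were present for 7 of the 10 genes (10 windows) and not for *Adck5*, *Coq8b* and *Coq5*. *Adck1* lies on the plus strand of chromosome 12 (88360554 to 88461724 in GRCm38) and has 2 such windows, which together hold the letters at 3 places. These are shown with 29 bases each, read along the gene, with GTTTC or its reverse complement GAAAC in capitals.
Adck1 first match, chr12:88360532-88360560: ggcgaaagcactGTTTCctggaatttggg
Adck1 middle match, chr12:88360719-88360747: cgaagctgggagGAAACtcgagcctgtga
Adck1 match nearest the downstream start, chr12:88360755-88360783: accctagctggcGAAACcacgtggttcag

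The first match falls in both windows, from base 31 after the upstream start and from base -238 before the downstream start. The other matches begin at bases -51 and -15 before the downstream start. Counted on both strands, the letters occurred in 5 of the 10 windows (4 of the 7 genes: *Adck1*, *Coq3*, *Coq7* and *Coq8a*), or 50%, beside 45.0% of all 32851 windows and 41.3% of the 12040 windows of genes in the table. The longer forkhead core motif TGTTTAC occurred in 0 of the 10 windows and in 3.65% of all windows. A match is a description of these letters only.

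The samples had similar depth. Reads on listed genes, recovered as whole numbers from the deposited values, came to 21466436 and 17901203 in wild-type ECs and to 15827166 and 16963866 in *Foxq1* cKO ECs. The median gene had between 438 and 550 reads, and every listed gene had at least 1 read in each sample. Values given in pairs below are those of replicate 1 and then replicate 2. The number of reads on each gene therefore sets only part of the error, and the gaps between replicates described below were far wider than counting error for several genes.

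*Foxq1* (chromosome 13, 31556134 to 31560976, GRCm38), the deleted forkhead transcription factor, had 353 and 297 normalized counts in wild-type ECs and 5.44 and 32.6 in *Foxq1* cKO ECs. Both *Foxq1* cKO samples were thus below both wild-type samples, as their labels say, with a log2 difference of -4.47 ± 1.04 (SE, n = 2 a group). The 1 exon of *Foxq1* shares 3200 of its 4843 bases with A530084C06Rik on the opposite strand. Strand use in counting was not given in the sources used here, and without strand the reads of such overlapping genes cannot be told apart.

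Endothelial identity was checked with 15 markers, and all 15 were listed. Their summed normalized counts were 436931 and 399097 in wild-type ECs and 352583 and 391502 in *Foxq1* cKO ECs, with the tight junction gene *Cldn5* the most abundant. These *Foxq1* cKO sums were both below the wild-type sums, at 0.890 times their mean. As a share of all counts the groups overlapped, with 2.42% and 2.24% in wild-type ECs and 2.05% and 2.27% in *Foxq1* cKO ECs. Among the 15 genes, 7 were lower in *Foxq1* cKO without overlap, 2 (*Cdh5* and *Ramp2*, at 1.08 and 1.19 times the wild-type mean) were higher and 6 overlapped, where 18% of all genes tested were lower and 18% higher without overlap. *Cldn5* itself had 151977, 136639, 126706 and 134826 normalized counts in the 4 samples, wild-type first.

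RNA of other cells was also present, with lower marker sums, although the lists differ in length. Of 12 mural markers 9 were listed, with *Rgs5*, a pericyte gene, the most abundant and the contractile genes *Acta2*, *Tagln* and *Myh11* not listed, and their sums were 155649, 153696, 160912 and 146364 in the same sample order. The mean of *Rgs5* over the 4 samples, 90655 normalized counts, lay between those of *Cldn5* (137537) and *Pecam1* (13287) of the endothelial list. All 12 microglia and macrophage markers were listed, with sums of 11535, 14164, 8931 and 10192, so that both *Foxq1* cKO samples were below both wild-type samples. Among the 12 genes, 3 were lower in *Foxq1* cKO without overlap, 1 (*Trem2*) was higher and 8 overlapped, close to the 18% of all genes in each direction. Their most abundant gene *Csf1r*, the receptor that microglia need to survive, had 3365 and 2579 normalized counts in wild-type ECs and 1732 and 1587 in *Foxq1* cKO ECs. Its groups did not overlap, and whether this shift or that of the endothelial sums had a part in the values of *Adck1* or the other genes was not tested.

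The remaining marker lists overlapped between the groups. Neuron markers were listed for 9 of 12 genes (*Gad1* and *Tbr1* were among those that were not) and summed to 6461, 5843, 4286 and 6113, led by *Map2*. Progenitor and astrocyte markers were listed for 9 of 10 genes (*Eomes* was not) and summed to 27361, 26695, 26730 and 23406, led by *Nes*, a filament gene of neural progenitors. *Nes* is also known from young vessels, so it does not mark progenitors alone. The groups did not overlap for 6 of the 9, of which 4 were lower and 2 higher in *Foxq1* cKO, beside 18% of all genes in each direction. *Nes* had 5293 and 5639 normalized counts in wild-type ECs and 8608 and 6317 in *Foxq1* cKO ECs. *Gfap*, an astrocyte filament gene named here after its values were seen, had 3073 and 2420 in wild-type ECs and 1081 and 1329 in *Foxq1* cKO ECs. The *Foxq1* cKO mean of *Gfap* was 43.9% of wild-type, close to the 42.4% of *Adck1*, with an adjusted p of 0.857 in limma and 0.0162 in DESeq2, and its part in the other values was not tested. Other genes of this list varied. *Pax6* was also lower without overlap, at 0.505 times the wild-type mean. It had 124 and 119 normalized counts in wild-type ECs and 98.0 and 24.4 in *Foxq1* cKO ECs. *Hes5* was lower without overlap as well, at 0.731 times, and *Sox2* (1.01 times) overlapped. *Aqp4* was higher without overlap, at 1.10 times the wild-type mean, and *Slc1a3* was lower without overlap, at 0.799 times. *Fabp7* (1.02 times) and *Aldh1l1* (0.707 times) overlapped. Oligodendrocyte lineage markers were listed for only 2 of 6 genes (*Olig2*, *Sox10* and *Mbp* were among those that were not) and summed to 2476, 1989, 1323 and 3182, led by *Olig1*. Erythroid markers were listed for 7 of 8 genes (*Hbb-y* was not) and summed to 20859, 15770, 16022 and 20516, led by *Hba-a1*. Over the other lists, *Flt1* and *Mfsd2a* of the endothelial list and *Csf1r* of the microglia list had an unadjusted p under 0.05 in limma, all lower in *Foxq1* cKO and the first 2 likewise named after their values were seen. These are lists of 7 cell classes in all, and the microglia list and the endothelial list were those whose sums of normalized counts separated the genotypes. As a share of all counts, the endothelial list did not.

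**Figure D1:**
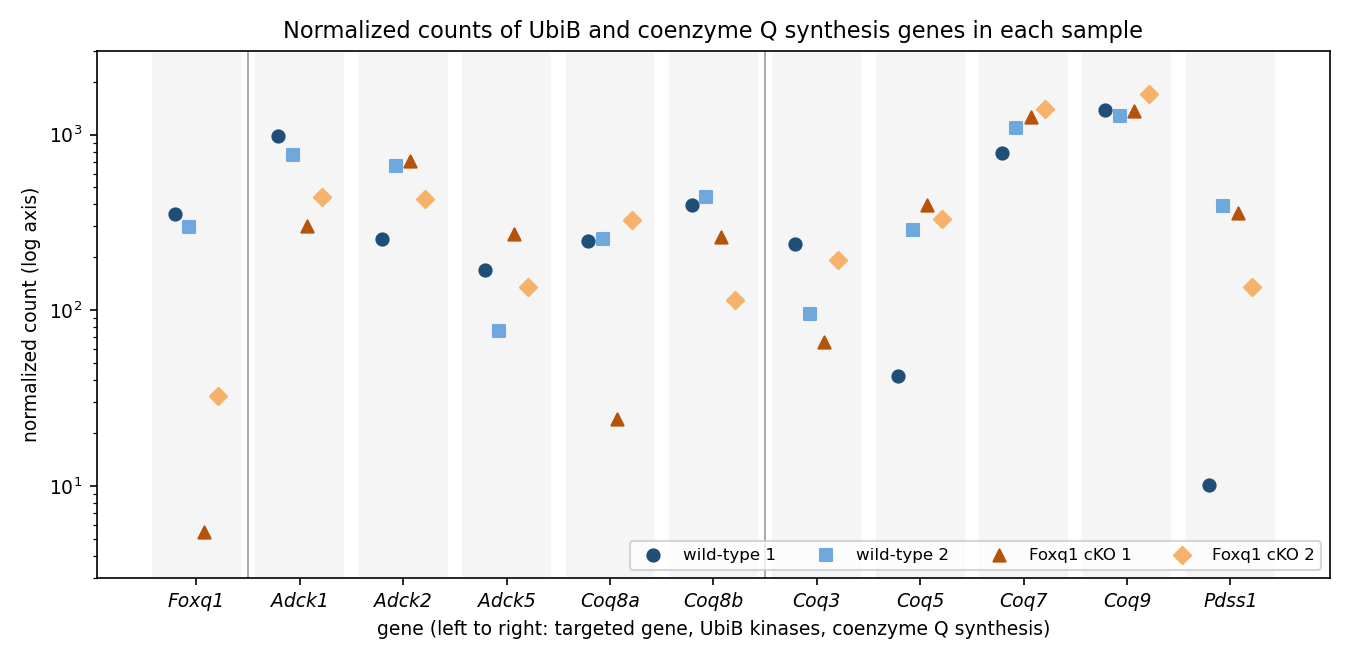
Normalized counts (log axis) of *Foxq1*, the 5 UbiB kinases and the 5 coenzyme Q synthesis enzymes, with 1 point for each of the 4 samples. The *Foxq1* cKO points of *Adck1* sit at 300.5 and 442.5, below both wild-type points, whereas *Coq8a* and *Pdss1* each have 1 sample far below the other 3.

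Among the UbiB kinases, *Adck1* had the clearest separation for its replicate spread. It had 985 and 768 normalized counts in wild-type ECs (1169 and 770 reads) and 300.5 and 442.5 in *Foxq1* cKO ECs (276 and 435 reads). Both *Foxq1* cKO samples were below both wild-type samples, and the lower wild-type sample stood well clear of the higher *Foxq1* cKO sample. The mean was 876 ± 154 (SD, n = 2) in wild-type and 371 ± 100 in *Foxq1* cKO, or 42.4% of wild-type, with a log2 difference of -1.25 ± 0.40 (SE). Leaving out each sample in turn gave differences between -1.53 and -0.97. Of the 12472 genes, 4.72% had a lower log2 difference than *Adck1*. Its exons overlap the antisense genes 3200001D21Rik over 246 bases and 4930473H19Rik over 153 bases.

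*Coq8b* (chromosome 7, 27233023 to 27257950), which with *Coq8a* is the UbiB gene tied most directly to coenzyme Q synthesis, had 399 and 443 normalized counts in wild-type ECs and 261 and 115 in *Foxq1* cKO ECs. The groups did not overlap here either, but the *Foxq1* cKO samples differed from each other by 2.26-fold, nearly as much as the groups. The mean was 421 ± 30.6 (SD, n = 2) in wild-type and 188 ± 103 in *Foxq1* cKO, with a log2 difference of -1.27 ± 0.61 (SE). The size of this difference rested on 1 sample, since it was -0.68 without *Foxq1* cKO 2 and -1.86 without *Foxq1* cKO 1. The exons of *Coq8b* overlap the antisense gene Gm15567 over 455 bases and Gm44641 on the same strand over 153 bases.

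*Coq8a* (chromosome 1, 180165238 to 180199602), the paralog of *Coq8b*, had 249 and 253 normalized counts in wild-type ECs and 24.0 and 325 in *Foxq1* cKO ECs. One *Foxq1* cKO sample was thus below and the other above both wild-type samples, so the groups overlapped. The 2 *Foxq1* cKO values (22 and 319 reads) differed by 13.0-fold, a wider gap than 98.4% of the 3611 genes within 2-fold of its mean level had. The log2 difference of -1.49 ± 1.24 (SE) rested on *Foxq1* cKO 1, and was 0.37 without that sample and -0.53 in DESeq2, which fits the group means of reads. Its 3′ end overlaps *Cdc42bpa* on the opposite strand over 366 bases of exon.

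*Adck2* (chromosome 6, 39573873 to 39588769), a UbiB gene linked to fatty acid oxidation and coenzyme Q in muscle, had 255 and 659 normalized counts in wild-type ECs and 711 and 427 in *Foxq1* cKO ECs. The wild-type samples spanned almost the whole range and the groups overlapped. Its log2 difference was 0.42 ± 0.59 (SE) and turned to -0.26 without wild-type 1. *Adck5* (chromosome 15, 76576358 to 76595816), a family member of little known function, had 169 and 75.8 normalized counts in wild-type ECs and 270 and 135 in *Foxq1* cKO ECs. These also overlapped, with a log2 difference of 0.75 ± 0.77 (SE) that was 0.18 without wild-type 2, 0.26 without *Foxq1* cKO 1 and 1.32 without wild-type 1. The exons of *Adck2* overlap Gm42420 on the same strand over 489 bases, and those of *Adck5* overlap 5730521K06Rik on the same strand over 307 bases.

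The UbiB kinases were also summed. The 5 genes together had 2058 and 2198 normalized counts in wild-type ECs and 1567 and 1445 in *Foxq1* cKO ECs, which did not overlap, and the *Foxq1* cKO mean was 70.8% of the wild-type mean. Without *Adck1* the sums were 1073, 1431, 1266 and 1002, which overlapped, with a *Foxq1* cKO mean of 90.6% of wild-type. *Adck1* made up 47.9% and 34.9% of the UbiB sum in wild-type ECs and 19.2% and 30.6% in *Foxq1* cKO ECs.

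**Figure D2:**
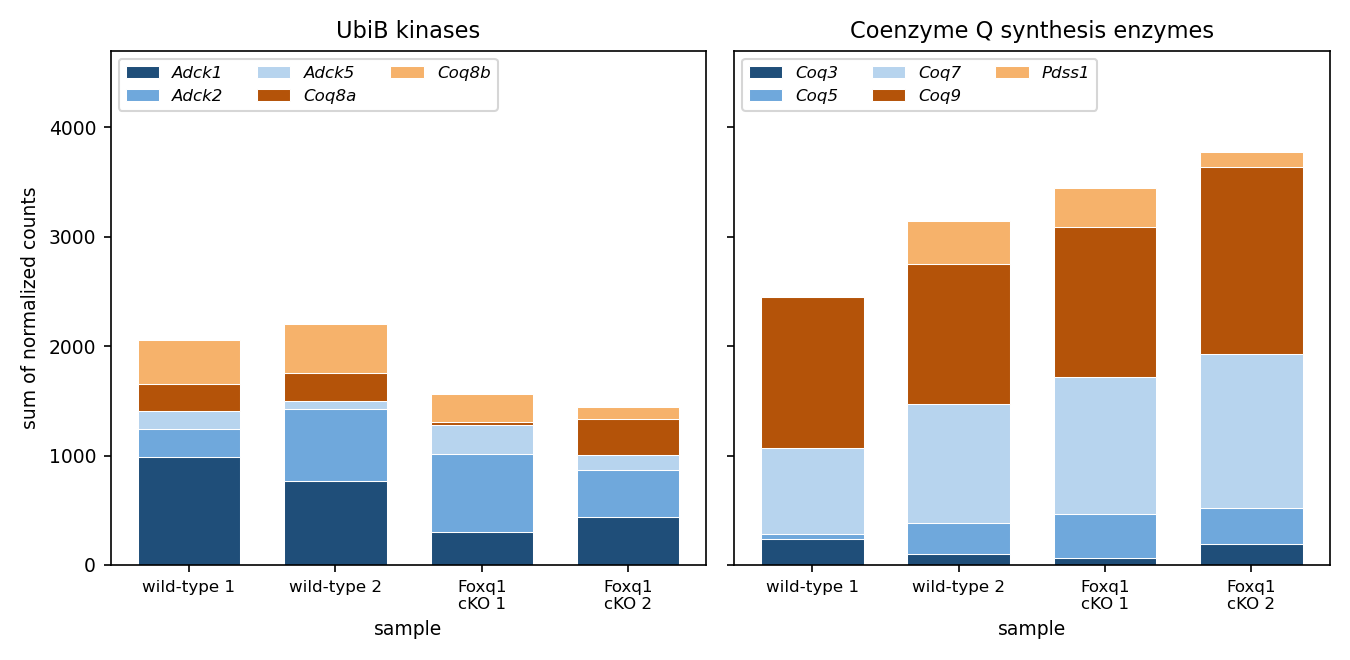
Summed normalized counts in each of the 4 samples, stacked by gene, for the 5 UbiB kinases (left) and the 5 coenzyme Q synthesis enzymes (right). The UbiB sums are 2058, 2198, 1567 and 1445 from left to right and the synthesis sums 2461, 3140, 3443 and 3772.

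Among the synthesis enzymes, *Coq7* and *Coq9* were the ones read deeply with close replicates. *Coq9* (chromosome 8, 94838321 to 94854895), a lipid-binding protein that presents the precursor to COQ7, had 1382 and 1274 normalized counts in wild-type ECs and 1366 and 1712 in *Foxq1* cKO ECs. The groups overlapped, and the log2 difference was 0.20 ± 0.25 (SE), and 0.04 without *Foxq1* cKO 2. *Coq7* (chromosome 7, 118509659 to 118533356), the hydroxylase of a late ring modification, had 788 and 1092 normalized counts in wild-type ECs and 1258 and 1399 in *Foxq1* cKO ECs. Both *Foxq1* cKO samples of *Coq7* were above both wild-type samples, with a mean of 940 ± 215 (SD, n = 2) in wild-type and 1329 ± 99.2 in *Foxq1* cKO and a log2 difference of 0.52 ± 0.30 (SE). Without wild-type 1 that difference was 0.28.

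*Coq5* (chromosome 5, 115279666 to 115296972), the C-methyltransferase of the ring, had 42.1 and 288 normalized counts in wild-type ECs and 395 and 332 in *Foxq1* cKO ECs. Its groups did not overlap, but wild-type 1 stood far below the other 3 samples. The log2 difference of 1.70 ± 0.97 (SE) was 0.33 without wild-type 1 and 3.07 without wild-type 2. *Coq3* (chromosome 4, 21879673 to 21912162), the O-methyltransferase of the ring, had 239 and 95.7 normalized counts in wild-type ECs and 66.4 and 193 in *Foxq1* cKO ECs. The groups overlapped, and the log2 difference of -0.41 ± 0.88 (SE) became 0.35 without *Foxq1* cKO 1.

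*Pdss1* (chromosome 2, 22895522 to 22940266), a subunit of the enzyme that builds the isoprenoid tail, had 10.1 and 391 normalized counts in wild-type ECs (12 and 392 reads) and 357 and 136 in *Foxq1* cKO ECs. The wild-type values were the lowest and the highest of the 4 and differed by 35.3-fold, a wider gap than 98.1% of the 3712 genes within 2-fold of its mean level had. The log2 difference of 1.75 ± 1.67 (SE) was -0.82 without wild-type 1 and 0.30 in DESeq2. Its exons overlap *Abi1* over 194 bases and the pseudogene A130006I12Rik over 207 bases, both on the opposite strand.

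The sums of the 5 synthesis enzymes were 2461 and 3140 in wild-type ECs and 3443 and 3772 in *Foxq1* cKO ECs. Both *Foxq1* cKO sums were above both wild-type sums, at 129% of the wild-type mean. Over all 10 genes the sums were 4519, 5339, 5010 and 5217, which overlapped, with a *Foxq1* cKO mean of 104% of wild-type.

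**Figure D3:**
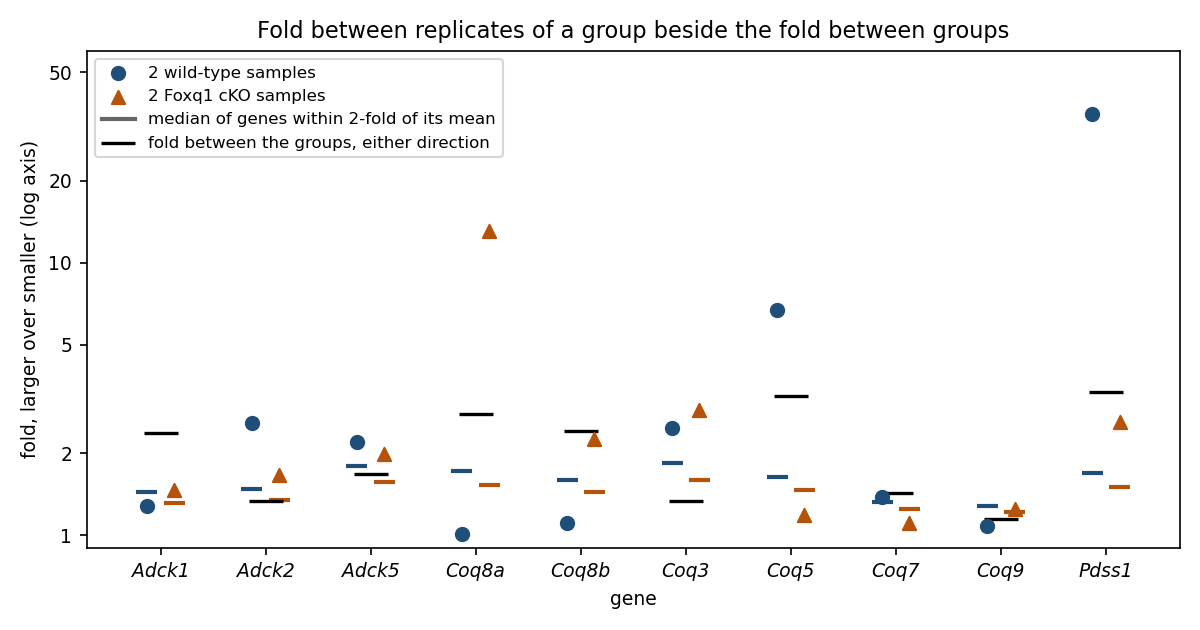
Fold between the 2 samples of each group (points, log axis) for the 10 genes, beside the median of the same fold over genes within 2-fold of the gene's mean (short coloured lines) and the fold between groups in either direction (black lines). The replicate points of *Adck1* (1.28 and 1.47) lie below its fold between groups of 2.38, whereas the *Foxq1* cKO point of *Coq8a* (13.0) and the wild-type point of *Pdss1* (35.3) lie far above theirs.

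The fold between replicates varied widely among the 10 genes. The median fold between the 2 wild-type samples was 1.75 over the 10 genes and 1.44 over all 12472 genes tested, and between the 2 *Foxq1* cKO samples it was 1.82 and 1.33. Both folds were under 1.5 for *Adck1* (1.28 and 1.47), *Coq7* (1.39 and 1.11) and *Coq9* (1.08 and 1.25), and for none of the other 7 genes. For *Adck1*, *Coq5*, *Coq8b* and *Coq7* the groups did not overlap.

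Counted over the 10 genes, both *Foxq1* cKO samples were below both wild-type samples for 2 (*Adck1* and *Coq8b*), beside 18% of all genes tested, and above them for 2 (*Coq5* and *Coq7*), beside 18% of all genes. In limma, 1 of the 10 (*Adck1*) was lower at an unadjusted p under 0.05, beside 3.05% of all genes, and 0 were higher, beside 2.17%, and *Adck1* was not past that threshold without wild-type 1 or without *Foxq1* cKO 1. Since the study picked *Adck1* partly for this difference and the other genes were listed with this contrast known, nothing is read from these counts. The median log2 difference was 0.31 over the 10 genes and 0.01 over all genes tested.

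No gene of the table passed an adjusted p under 0.05 in limma (0.00% of 12472), where 651 genes had an unadjusted p under 0.05. With 2 samples a group the fit can separate only changes that are large for their spread. DESeq2 on the recovered reads called 59 of 12693 genes at an adjusted p under 0.05 (0.465%) and 824 at an unadjusted p under 0.05 (6.49%), and edgeR called 0 and 615 (4.93% of 12473). None of the 10 genes was among the 59. An exact permutation test of 2 samples against 2 cannot go below 0.333.

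**Figure D4:**
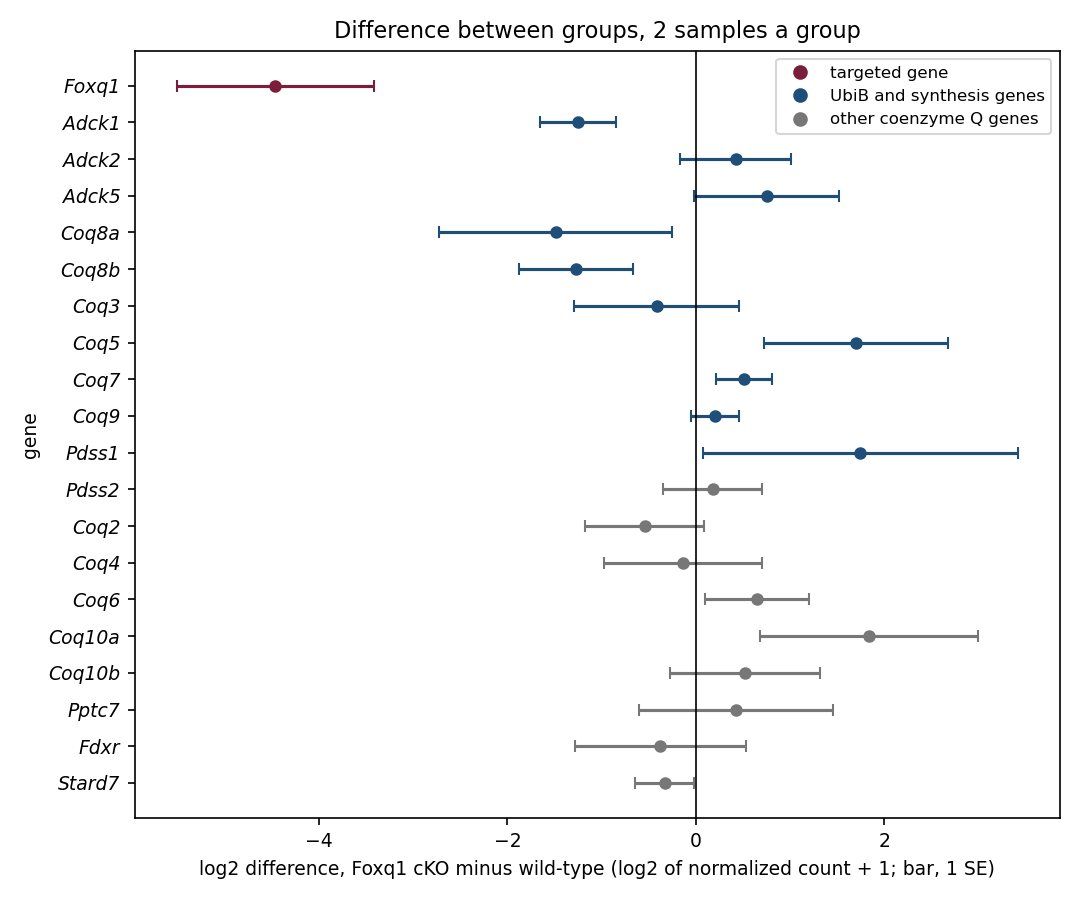
Log2 difference of *Foxq1* cKO minus wild-type, on the scale of log2(normalized count + 1), for *Foxq1*, the 10 UbiB and synthesis genes and the 9 other listed coenzyme Q genes. Points are differences of the means of 2 samples a group and bars 1 SE, and *Coq7* and *Coq9* (0.52 and 0.20) have the shortest bars.

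Transcript levels of the 10 genes were compared per kilobase of exon. In the wild-type samples *Coq9* was highest, with 435 ± 25.0 normalized counts per kb (SD, n = 2), and its 2 values were above those of the next gene. *Adck1* followed with 158 ± 27.7, *Coq7* with 146 ± 33.4, *Adck2* with 116 ± 72.3 and *Coq8b* with 75.4 ± 5.47 normalized counts per kb. *Coq3*, *Coq5*, *Coq8a*, *Pdss1* and *Adck5* had between 33.6 and 55.9 normalized counts per kb. From *Adck1* downward each gene's range overlapped that of the next, so the order of these neighbours is not resolved by 2 samples. Both values of *Adck1* and both of *Coq7* were nevertheless above every value of *Coq8b*, *Coq3*, *Coq5*, *Coq8a*, *Pdss1* and *Adck5*. Among the UbiB kinases *Adck1* had the highest mean per kb in the wild-type samples, and in *Foxq1* cKO ECs *Adck2* did, with 144 normalized counts per kb beside 66.9 for *Adck1*.

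The other genes of coenzyme Q synthesis, its regulation and its distribution did not pass the test. Of 11 genes 9 were listed (*Hpdl* and *Fdx2* were not), and 0 of the 9 had an unadjusted p under 0.05 in limma, DESeq2 or edgeR. Since 3.05% of all genes were lower and 2.17% higher at that threshold in limma, a count of 0 in a list of this size is near the background. Their median log2 difference was 0.18, and 5 differences were positive and 4 negative. *Coq10a*, a chaperone-like binder of coenzyme Q and the gene of the list with the smallest p, had 27.0 and 7.98 normalized counts in wild-type ECs and 29.4 and 105 in *Foxq1* cKO ECs. The *Foxq1* cKO samples of *Coq10a* were both higher, but the lowest of them was close to wild-type 1 (log2 difference 1.84 ± 1.16, limma adjusted p = 0.857).

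The genes of that list with the highest means were *Stard7*, a lipid transfer protein that carries coenzyme Q towards the cell surface, and *Pdss2*, the partner subunit of PDSS1. *Stard7* had 1639 and 1054 normalized counts in wild-type ECs and 1005 and 1086 in *Foxq1* cKO ECs. *Pdss2* had 419 and 288 normalized counts in wild-type ECs and 292 and 530 in *Foxq1* cKO ECs. Both overlapped between the groups. Their log2 differences were -0.33 ± 0.32 (SE) for *Stard7* and 0.18 ± 0.52 for *Pdss2*. *Pdss2* therefore did not share the low wild-type 1 value of its partner *Pdss1*.

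The mevalonate pathway, which supplies the isoprenoid units of the tail, was listed for 8 of 9 genes (*Fdps* was not). Of the 8 genes, 0 had an unadjusted p under 0.05 in limma, DESeq2 or edgeR, beside 3.05% lower and 2.17% higher of all genes in limma, and their median log2 difference was -0.03. *Hmgcs1*, an early synthase of the pathway, had 2696, 3366, 3151 and 2661 normalized counts in the 4 samples, wild-type first. *Acat2*, an acetyl-CoA acetyltransferase, had 1765, 2813, 1679 and 3134 in the same order, and both genes overlapped.

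Enzymes that pass electrons to coenzyme Q or take them from it were listed for 17 of 18 genes (*Chdh* was not), with a median log2 difference of -0.05. Of the 17 genes, 1 was higher and 0 were lower at an unadjusted p under 0.05 in limma, beside 2.17% and 3.05% of all genes. This was *Prodh*, proline dehydrogenase of the inner membrane, which had 85.9 and 21.9 normalized counts in wild-type ECs and 378 and 509 in *Foxq1* cKO ECs. Both *Foxq1* cKO samples of *Prodh* were several times above both wild-type samples. The log2 difference was 3.30 ± 0.86 (SE), with a limma unadjusted p = 0.00832 (adjusted p = 0.857) and an adjusted p of 0.0390 in DESeq2. Without *Foxq1* cKO 2 its limma unadjusted p was 0.0659, with a log2 difference of 3.08.

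The most abundant genes of this list differed little. *Uqcrc1*, a core subunit of complex III, had 13820 and 12318 normalized counts in wild-type ECs and 11900 and 11436 in *Foxq1* cKO ECs. Its groups did not overlap, with a log2 difference of -0.16 ± 0.13 (limma adjusted p = 0.875). *Sdha*, the catalytic subunit of complex II, had 8134, 9584, 6914 and 8648 normalized counts in the 4 samples, wild-type first, and its groups overlapped.

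Genes of MICOS and of the proteases and scaffolds of the inner membrane, to which ADCK1 has been tied, were all listed (17 genes), with a median log2 difference of -0.08. Of these, 2 were lower and 0 higher at an unadjusted p under 0.05 in limma, beside 3.05% and 2.17% of all genes, but 1 of the 2 was picked by the study partly for this difference and nothing is read from the count. *Oma1*, the stress-activated protease that cuts OPA1 and the gene the study picked partly on these samples, had 441 and 593 normalized counts in wild-type ECs and 124 and 179 in *Foxq1* cKO ECs. Its groups did not overlap, with a log2 difference of -1.77 ± 0.53 (SE) and a limma unadjusted p = 0.0158 (adjusted p = 0.857). Its unadjusted p was 0.0705 without *Foxq1* cKO 1 and 0.0581 without wild-type 2.

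*Dnajc11*, an outer membrane protein bound to MICOS, had 2568 and 2824 normalized counts in wild-type ECs and 1699 and 2053 in *Foxq1* cKO ECs. Its groups did not overlap, and its log2 difference of -0.53 ± 0.22 (SE) lay at the threshold, with a limma unadjusted p = 0.0493 (adjusted p = 0.857). That p was 0.0504 in edgeR and between 0.0716 and 0.228 when any 1 sample was left out.

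The genes through which ADCK1 has been tied to cristae did not pass the test. *Immt*, the core of MICOS, had 3339 and 4345 normalized counts in wild-type ECs and 5319 and 4464 in *Foxq1* cKO ECs, so that its *Foxq1* cKO values were the higher ones (log2 difference 0.36 ± 0.20, limma adjusted p = 0.857). Without wild-type 1 the difference of *Immt* was 0.17. *Yme1l1*, the protease, had 3543, 4084, 4579 and 4066 normalized counts in the 4 samples, wild-type first. *Opa1*, the fusion dynamin of the inner membrane, had 1791, 1572, 901 and 1882 in the same order. Both overlapped between the groups, with log2 differences of 0.18 ± 0.18 (SE) for *Yme1l1* and -0.37 ± 0.39 for *Opa1*.

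General mitochondrial genes of import, channels, matrix and mtDNA were all listed (17 genes). In limma 0 of them had an unadjusted p under 0.05, as in DESeq2 and edgeR, beside 3.05% lower and 2.17% higher of all genes in limma, and their median log2 difference was 0.22, with 12 positive and 5 negative. Both *Foxq1* cKO samples were above both wild-type samples for 7 of the 17 genes and below them for 1, beside 18% of all genes in each direction. This list was also chosen with earlier results known, so nothing is read from that count. *Tomm70a*, an import receptor, had the smallest p, with 415 and 497 normalized counts in wild-type ECs and 802 and 717 in *Foxq1* cKO ECs (log2 difference 0.74 ± 0.36, limma adjusted p = 0.857). The chaperone *Hspd1* had 5257, 6872, 4937 and 5227 normalized counts and the channel *Vdac3* 3714, 3641, 4235 and 3889, in the 4 samples, wild-type first. The groups of both genes did not overlap, with *Hspd1* lower and *Vdac3* higher in *Foxq1* cKO, and neither passed the test.

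**Figure D5:**
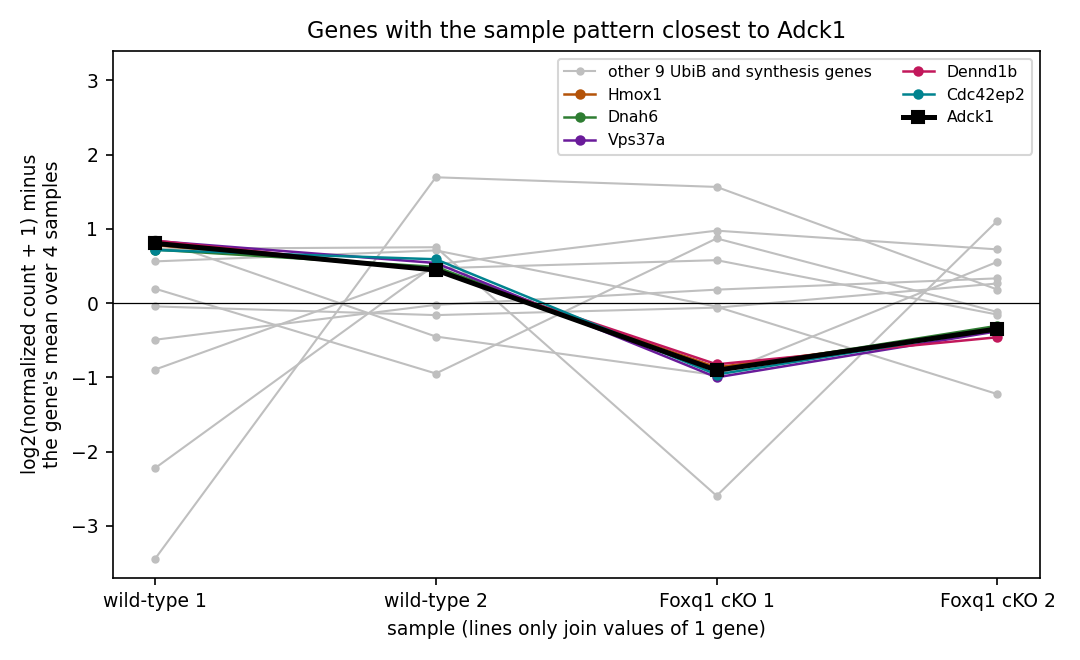
Log2(normalized count + 1) in each of the 4 samples, centred on each gene's own mean, for *Adck1*, the 5 genes closest to it and the other 9 UbiB and synthesis genes. The 5 closest genes nearly cover the line of *Adck1*, and the grey lines of the other 9 genes spread away from it.

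The genes whose pattern over the 4 samples was most like that of *Adck1* were found by the distance between log2 values centred on each gene's mean, over 11402 genes with a mean of at least 50. The 5 closest were *Hmox1* (distance 0.05), *Dnah6* (0.10), *Vps37a* (0.14), *Dennd1b* (0.14) and *Cdc42ep2* (0.18), beside a median distance of 1.52 over all genes compared. *Hmox1*, a heme-degrading enzyme that macrophages express strongly, had 2258 and 1792 normalized counts in wild-type ECs and 721 and 1019 in *Foxq1* cKO ECs. Like *Adck1*, it was highest in wild-type 1 and lowest in *Foxq1* cKO 1. None of the other 9 UbiB and synthesis genes came near, the closest being *Coq3* at a distance of 1.28 and rank 3459. With 4 samples such a ranking is a description.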

How the data were processed

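The deposited table holds a normalized signal per gene and sample: the authors' gene counts divided by a size factor, here called normalized counts. The submitters' processing notes name TopHat2 2.0.12, Bowtie2 2.2.3, HTSeq 0.6.0 and the build mm9, and strand use in counting was not given in the sources used here. The table's 1207361 lines were collapsed to 12693 symbols (8 symbols had 2 identifiers with identical values). Values were whole multiples of a step in every sample (tolerance 0.001 reads, 100% of values), which gave whole reads.

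limma 3.58.1 (R 4.3.3) was fitted with a variance trend to log2(value + 1) of genes with a mean of at least 10, two-sided, with Benjamini-Hochberg adjustment over 12472 genes. The pseudocount pulls the log2 difference of low genes towards 0, while a mean of log2 values gives a low replicate more weight than a mean of reads does. DESeq2 1.42.0 and edgeR 4.0.16 were run on the recovered reads. Scripts were tested on simulated counts at an adjusted p under 0.05. There limma recovered 38.2% of genes changed by a log2 of 2 and 74.0% of those changed by 4, and called 4 and 2 unchanged genes. DESeq2 recovered 99 and 163 changed genes but also called 29 and 55 unchanged ones. Its calls there held more unchanged genes than the threshold allows, so its adjusted p values are to be read with that limit.

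The 10 genes and all lists were chosen with earlier results of these data known. Named were these 10 genes, *Foxq1*, in each of 5 pathway lists the genes at an unadjusted p under 0.05 (otherwise the smallest p) and the 2 with the highest mean, *Immt*, *Opa1*, *Yme1l1* and *Oma1*, each marker list's most abundant gene and unlisted markers, and the 5 genes most like *Adck1*. A few genes that this rule names are not reported here. Gene positions and exon lengths were from GENCODE M21 (GRCm38), since the table holds no coordinates. Alternatives were other pseudocounts, filters, scalings, variance models and tools, a replicate block, and leaving out each sample.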

Additional observations from a re-analysis of the deposited data

How the results depend on the processing

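The log2 difference of *Adck1* stayed between -1.25 and -1.23 under the 10 alternatives that kept all 4 samples. Among these, no filter, a minimum mean of 50, no variance trend and the replicate block cannot change a difference of group means here. Their agreement with the main value was therefore fixed in advance. Genes past an adjusted p under 0.05 numbered 59 in DESeq2 and 0 in limma, and the count of inner membrane genes past an unadjusted p under 0.05 was 1 in place of 2 with a pseudocount of 0.1, a minimum mean of 50, quantile or TMM scaling, no variance trend, edgeR or a replicate block. The replicate numbers are shared between the groups but nothing says that they pair samples. Over 12472 genes, the deviations of wild-type 1 and *Foxq1* cKO 1 from their group means had a correlation of 0.03. The replicate block called 693 genes at an unadjusted p under 0.05 in place of 651. Values close to 0 changed sign: the medians of all genes (-0.013 in DESeq2 and -0.011 in edgeR), mevalonate genes (0.000273 under quantile scaling) and coenzyme Q users (0.056 at a minimum mean of 50), and the difference of *Hmgcs1* (0.015 under quantile scaling).

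Leaving out 1 sample, where the lone sample was assumed to vary like the others, gave between 276 (without *Foxq1* cKO 1) and 1569 (without wild-type 2) genes at an unadjusted p under 0.05, 210 to 586 of them lower, and 0 to 3 of the 10 genes. Differences ranged from -0.26 to 1.11 for *Adck2*, 0.18 to 1.32 for *Adck5*, -3.34 to 0.37 for *Coq8a*, -1.18 to 0.35 for *Coq3*, -0.82 to 4.32 for *Pdss1*, -0.25 to 0.61 for *Pdss2*, -0.22 to 0.10 for *Hmgcs1*, -0.41 to 0.49 for *Acat2* and -0.90 to 0.17 for *Opa1*. Without a change of sign they ranged from 0.33 to 3.07 for *Coq5*, -1.86 to -0.68 for *Coq8b*, 0.28 to 0.75 for *Coq7*, 0.04 to 0.37 for *Coq9* and 0.17 to 0.55 for *Immt*. The same held for *Stard7* (-0.65 to -0.01), *Coq10a* (0.94 to 2.74), *Yme1l1* (0.08 to 0.28) and *Uqcrc1* (-0.24 to -0.08). List medians ranged from -0.21 to 0.79 for other coenzyme Q genes, -0.22 to 0.24 for mevalonate, -0.073 to 0.15 for coenzyme Q users and -0.16 to 0.066 for inner membrane genes, and from -0.027 to 0.028 over all genes. The median of general mitochondrial genes ranged from 0.19 to 0.23. Counts at an unadjusted p under 0.05 ranged from 0 to 1 for mevalonate, inner membrane and general mitochondrial genes and from 1 to 2 for coenzyme Q users. The cause was not tested. With 2 samples a group, these data cannot resolve the direction of *Adck2*, *Adck5*, *Coq3*, *Coq8a*, *Coq9* or *Pdss1*, whose groups overlapped. They also cannot resolve the size of the difference of *Coq5*, *Coq7* and *Coq8b*. A sign that held when each sample was left out does not settle the direction of these genes either.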

Other observations

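The RefSeq promoter windows differed in base composition. The upstream window of *Adck1* had 43.3% G and C and 7 CpG pairs, and its downstream window had 64.3% and 24 CpG pairs. Over the 10 windows of the 7 genes, G and C ranged from 43.3% (*Adck1*) to 68.3% (*Coq9*) and CpG pairs from 6 (*Coq8a*) to 39 (*Coq9*).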
